A study of Mus musculus with 18 samples.

Results

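Transcripts were measured in hippocampus of 5xFAD mice given PBS and of wildtype mice given PBS, with 3 libraries in each group, 6 of the study's 18. The libraries were chosen by their labels for tissue, genotype and treatment, and no measured value entered the choice. 5xFAD mice carry human APP with mutations of inherited Alzheimer's disease, under a Thy1 promoter that is active in neurons, and they deposit amyloid plaques from an early age. All mice were males of the C57BL/6J strain. PBS went into a vein every 3 days, 10 times, between 5 and 6 months of age, in both genotypes, and brains were taken after behavioural tests and perfusion with cold PBS. Another hippocampal group, 5xFAD mice given vesicles from human milk, entered the fit to estimate the spread only. The labels do not say whether the libraries of a group are separate mice, so a p-value here covers the variation among libraries, part of which may be technical. Below, 5xFAD and wildtype stand for the PBS groups in hippocampus.

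Microglia are the resident macrophages of the brain. Near amyloid plaques they take up lipids and amyloid through the receptor Trem2 and its adaptor Tyrobp, enlarge their lysosomes and switch on a set of genes called the plaque-associated or disease-associated state. Type I interferons, released by infected or stressed cells, act through transcription factors such as Irf9 on interferon-stimulated response elements (ISRE) in promoters. Immediate early genes such as Fos and Arc are switched on in neurons within minutes of firing, through calcium signals that reach cAMP response elements (CRE) and serum response elements (CArG boxes).

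Genotype separated 611 of 13305 tested genes (4.59%) in hippocampus at an adjusted p under 0.05, out of 18683 genes listed. Of these, 557 rose in 5xFAD (4.19% of tested genes) and 54 fell (0.406%). With the trend of each library over gene length removed, 733 rose and 198 fell. The median log2 fold change was 1.06 among genes that rose and -0.49 among genes that fell, against 0.02 over all tested genes. A change over 2-fold was reached by 305 genes that rose and 7 that fell. In all 611 called genes the libraries of the groups did not overlap, which also held for 25.5% of all tested genes. The values are FPKM, fragments per kilobase of gene scaled to library depth. Each fold change is a difference on the log2(FPKM + 0.5) scale, 5xFAD minus wildtype, and understates the change of low genes. A called gene is one past the threshold in limma, and leaving out 1 of the 6 libraries gave between 320 and 446 calls, with 288 genes called in every such fit.

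**Figure D1:**
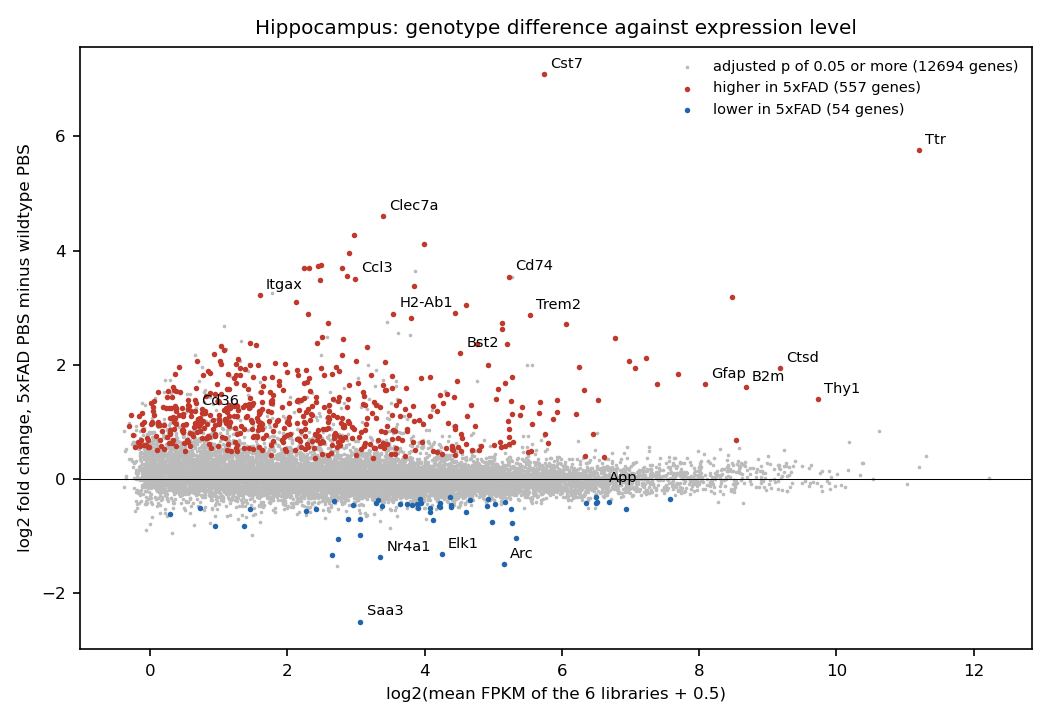
Log2 fold change (5xFAD PBS minus wildtype PBS, vertical) against log2 of the mean FPKM of the 6 hippocampus libraries plus 0.5 (horizontal), a point per tested gene, with the 557 called higher in red and the 54 called lower in blue. Cst7 and Ttr lie highest, Saa3 lowest, and the falls are smaller than the rises.

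The tissue was checked against its markers. C1ql2, a synaptic protein of dentate granule cells, stood at 44.1, 37.1 and 35.9 FPKM in 5xFAD against 41.2, 44.5 and 50.3 FPKM in wildtype, and at 0.220 to 0.319 FPKM in wildtype prefrontal cortex. Prox1, the transcription factor of the same cells, stood at 12.7, 8.74 and 10.8 FPKM in 5xFAD and 13.2, 11.1 and 9.24 FPKM in wildtype. Prox1, Dsp, Wfs1, Fibcd1, Rgs14, Amigo2 and Grik4 were higher in each wildtype hippocampus library than in any wildtype cortex one. The markers Calb1 and Mpped1 did not tell the tissues apart. In wildtype, Calb1 stood at 53.4 to 64.7 FPKM in hippocampus and 61.6 to 64.0 FPKM in cortex. Mpped1 stood at 25.8 to 29.6 FPKM and 24.9 to 31.2 FPKM. Markers of neighbouring tissue differed between groups and among libraries. The 30 tested markers of choroid plexus, the epithelium that makes cerebrospinal fluid, summed to 3259, 10509 and 3432 FPKM in 5xFAD, against 126, 205 and 300.2 FPKM in wildtype. Of the thalamic markers, Tcf7l2 stood at 0.789, 0.908 and 4.31 FPKM in 5xFAD against 0.527, 1.3 and 0.524 FPKM in wildtype, so that 5xFAD replicate 3 was high. Abundance also followed gene length in some libraries, with slopes of 0.119, -0.550 and -0.0846 log2 units per 10-fold length in 5xFAD and 0.353, 0.0461 and -0.170 in wildtype. Short genes were thus highest in 5xFAD replicate 2 and lowest in wildtype replicate 1. The part of these differences in the results below was not tested, except where values without a library or with the length trend removed are given.

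Of genes of plaque-associated microglia, 29 of 39 tested members rose and none fell, with a median log2 fold change of 1.57. Cst7, which encodes cystatin F, an inhibitor of lysosomal cysteine proteases, stood at 112, 92.3 and 111 FPKM in 5xFAD and 0.218, 0.424 and 0.201 FPKM in wildtype (log2 fold change 7.09, SE 0.32, adjusted p = 1.8e-05). It was the largest difference in the comparison, and the wildtype libraries were close to 0. Clec7a, the beta-glucan receptor dectin-1, had 22.1, 20.4 and 16.7 FPKM in 5xFAD against 0.328, 0.454 and 0.211 FPKM in wildtype (log2 fold change 4.61, SE 0.28, adjusted p = 0.00013). Itgax, the integrin chain CD11c, had 7.36, 2.99 and 4.63 FPKM in 5xFAD and 0.0496, 0.0965 and 0.0328 FPKM in wildtype (log2 fold change 3.22, SE 0.32, adjusted p = 0.00075). The integrin was nearly absent in each wildtype library and varied more than 2-fold among the 5xFAD libraries, with replicate 1 highest.

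The same group held abundant lysosomal and secreted proteins. Lysozyme Lyz2 had 121, 120.1 and 103 FPKM in 5xFAD against 12, 17 and 23.8 FPKM in wildtype (log2 fold change 2.72, SE 0.27, adjusted p = 0.00075). Cd68, a lysosomal membrane glycoprotein of phagocytes, had 62.1, 58.2 and 60.0 FPKM in 5xFAD and 7.18, 8.72 and 10.3 FPKM in wildtype (log2 fold change 2.73, SE 0.26, adjusted p = 0.00074). For both, the values within 5xFAD lay close together, with the lowest library far above the highest wildtype one. Cd52 (log2 fold change 3.04), the chemokine Ccl6 (3.38), the oxysterol-making enzyme Ch25h (2.27), the glycoprotein Gpnmb (1.82), the lectin Lgals3 (1.08), lipoprotein lipase Lpl (1.13), the growth factors Csf1 (0.63) and Igf1 (0.74) and the receptor Axl (0.84) also rose. Apoe, the main lipid carrier of the brain, had 1327, 1559 and 1347 FPKM in 5xFAD against 737, 884 and 1124 FPKM in wildtype, and did not pass (log2 fold change 0.64, adjusted p = 0.083). Spp1, osteopontin, did not pass either, at 46.1, 33.4 and 42.2 FPKM in 5xFAD and 7.03, 11.9 and 19.9 FPKM in wildtype (adjusted p = 0.069). The groups were apart in both, but the wildtype libraries were spread, with replicate 3 highest. Fth1, ferritin heavy chain, stood at 4176, 5963 and 4320.2 FPKM in 5xFAD against 4044, 4736 and 5396 FPKM in wildtype (log2 fold change 0.02, adjusted p = 0.98). Axl did not pass without 5xFAD replicate 1 or 3 or wildtype replicate 1 or 2 (adjusted p = 0.056 to 0.069). Without 5xFAD replicate 1 or 3 or wildtype replicate 2 or 3, Gpnmb was not called (adjusted p = 0.066 to 0.074). The call of Lpl was lost without 5xFAD replicate 1 or 3 or wildtype replicate 2 (adjusted p = 0.054 to 0.079). Igf1 did not pass without 5xFAD replicate 1 or 3 or wildtype replicate 1, 2 or 3 (adjusted p = 0.064 to 0.12).

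**Figure D2:**
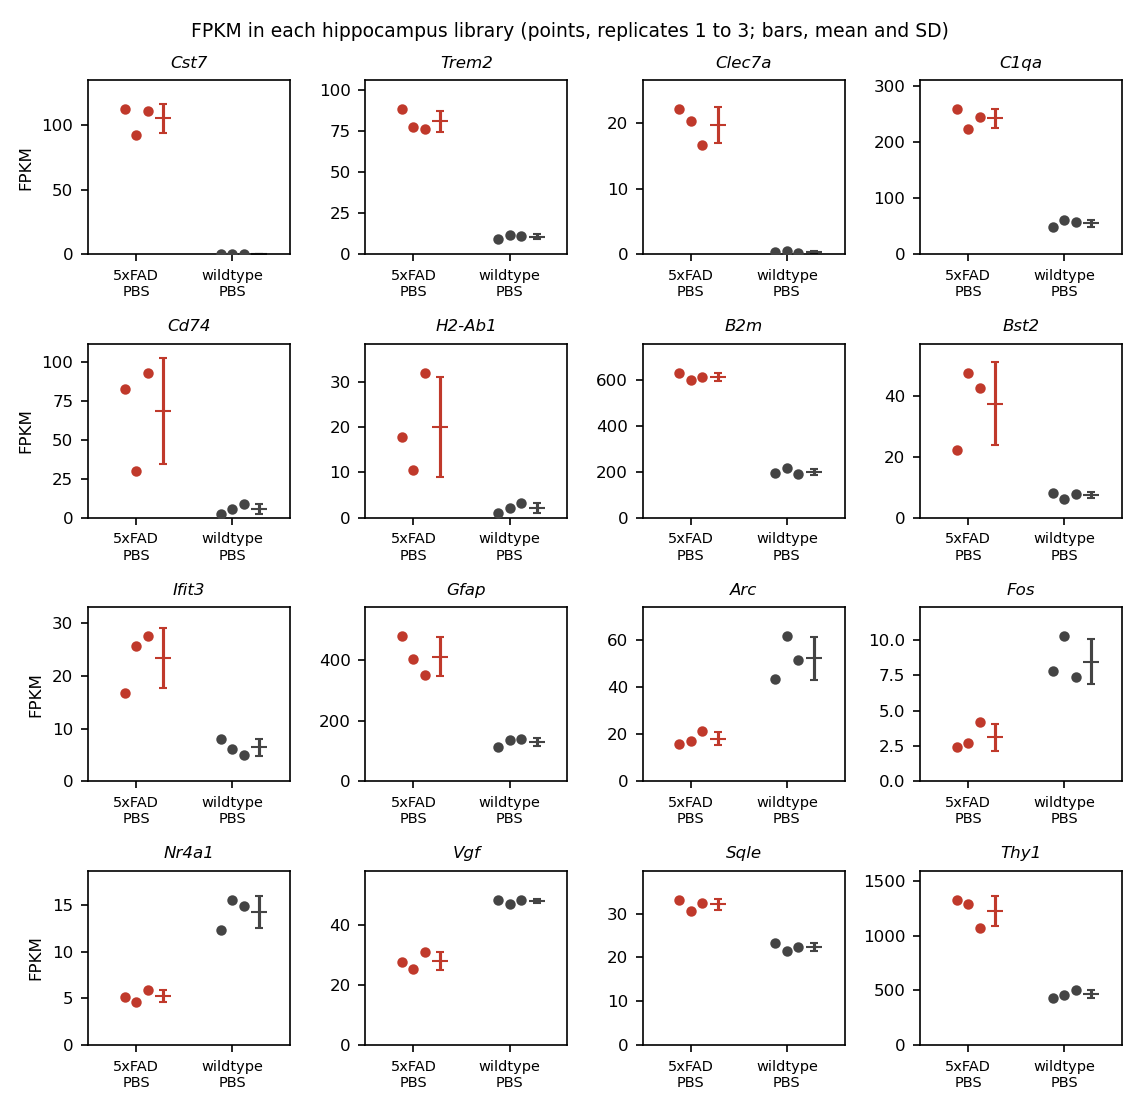
FPKM (vertical, linear, from 0) of 16 genes in each hippocampus library, 5xFAD PBS in red and wildtype PBS in grey, with points for replicates 1 to 3 and a bar for the mean and SD of n = 3. In each panel the points of the groups do not overlap, and Cd74, H2-Ab1 and Bst2 vary most among the 5xFAD libraries.

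Of 18 tested members of the Trem2 pathway 13 rose, none fell, and the median was 1.09. Trem2, a lipid-binding receptor, had 88.6, 77.9 and 76.7 FPKM in 5xFAD and 9.2, 11.7 and 11.3 FPKM in wildtype (log2 fold change 2.86, SE 0.21, adjusted p = 0.00019). Tyrobp, its signalling adaptor, had 179, 205 and 168 FPKM in 5xFAD against 26.9, 31.8 and 40.3 FPKM in wildtype (log2 fold change 2.48, SE 0.27, adjusted p = 0.00096). Downstream the lipid phosphatase Inpp5d (1.003), the phospholipase Plcg2 (0.81), the exchange factor Vav1 (1.10), the kinase adaptor Pik3ap1 (1.29) and the small GTPase Rac2 (1.30) rose by less than the receptor. Cd33, a sialic acid receptor with an inhibitory tail, rose as well, with 3.74, 2.49 and 3.03 FPKM in 5xFAD and 0.983, 1.43 and 1.13 FPKM in wildtype (log2 fold change 1.09, SE 0.15, adjusted p = 0.0031). Without wildtype replicate 2, Plcg2 was not called (adjusted p = 0.0502). The kinase Btk (0.86, adjusted p = 0.068) and the adaptor Grb2 (-0.01, adjusted p = 0.97) did not pass.

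Genes of homeostatic microglia, which carry the surveying state of these cells, were higher too: 12 of 20 rose and none fell, with a median of 0.93. Csf1r, the receptor that microglia need for survival, had 65.8, 55.9 and 57.6 FPKM in 5xFAD against 22.6, 25.5 and 25.6 FPKM in wildtype (log2 fold change 1.26, SE 0.12, adjusted p = 0.00075). The fractalkine receptor Cx3cr1 had 43.3, 30.3 and 33.9 FPKM in 5xFAD and 14.7, 16.2 and 11.8 FPKM in wildtype (log2 fold change 1.30, SE 0.16, adjusted p = 0.0015). P2ry12, the ADP receptor of surveying processes, had 36.9, 33.6 and 32.7 FPKM in 5xFAD against 18.3, 19.2 and 16 FPKM in wildtype (log2 fold change 0.93, SE 0.17, adjusted p = 0.014). Tmem119, a membrane protein used as a microglial marker, had 19.4, 19.1 and 21.3 FPKM in 5xFAD and 12, 13.5 and 14.5 FPKM in wildtype and did not pass (0.57, adjusted p = 0.09). In bulk tissue, more cells of a type and more RNA per cell cannot be told apart. Among transcription factors of the lineage, 5 of 17 rose and 1 fell, against 8 and 1 with the length trend removed. Irf8 had 7.98, 6.39 and 7.02 FPKM in 5xFAD against 1.14, 1.94 and 1.55 FPKM in wildtype (log2 fold change 1.91, SE 0.23, adjusted p = 0.0016), and Spi1, which encodes PU.1, had 7.04, 8.7 and 8.59 FPKM in 5xFAD and 2.39, 3.22 and 3.51 FPKM in wildtype (log2 fold change 1.29, SE 0.21, adjusted p = 0.007). Bhlhe40 fell, with 32.3, 28.1 and 31.2 FPKM in 5xFAD against 37.4, 41.7 and 41.9 FPKM in wildtype (log2 fold change -0.40, SE 0.08, adjusted p = 0.023). Its level was above those of Irf8 and Spi1 in each library, and which cells of the tissue it came from was not tested. The call of Bhlhe40 was lost without 5xFAD replicate 2 or 3 or wildtype replicate 2 or 3 (adjusted p = 0.059 to 0.11). P2ry12 did not pass without 5xFAD replicate 1 or wildtype replicate 3 (adjusted p = 0.057 to 0.061).

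Receptors that sense microbes, antibodies and damage rose together with these. Of 12 tested genes of Toll-like receptor signalling 10 rose (median 1.25), led by Cd180, a Toll-like relative without a signalling domain, at 11, 7.67 and 11.2 FPKM in 5xFAD and 0.774, 1.76 and 0.801 FPKM in wildtype (log2 fold change 2.73, SE 0.28, adjusted p = 0.00088). Tlr2 had 2.43, 2.29 and 2.38 FPKM in 5xFAD against 0.193, 0.334 and 0.358 FPKM in wildtype (log2 fold change 1.86, SE 0.17, adjusted p = 0.00063), and Tlr7, a sensor of RNA in endosomes, rose by 1.36. Tlr4, the receptor of bacterial lipopolysaccharide, was low at 0.582, 0.447 and 0.579 FPKM in 5xFAD and 0.281, 0.162 and 0.125 FPKM in wildtype and did not pass (adjusted p = 0.098). Of 8 genes of the Fc receptor list 6 rose, and the inhibitory receptor Fcgr2b had 15, 13 and 15 FPKM in 5xFAD against 2.18, 2.81 and 2.46 FPKM in wildtype (log2 fold change 2.32, SE 0.18, adjusted p = 0.00022). Of 7 genes of the phagocyte oxidase, which makes superoxide, 6 rose (median 1.41), with the summed list at 56.8, 49.8 and 50.9 FPKM in 5xFAD against 14.2, 17.7 and 18.8 FPKM in wildtype. All 6 were called in every fit that left out a library. Of 28 further surface receptors 18 rose (median 1.05). Among them were 3 inhibitory receptors better known from T cells, Pdcd1 (PD-1) at 1.98, 1.44 and 1.46 FPKM in 5xFAD and 0.0317, 0.0577 and 0.044 FPKM in wildtype (log2 fold change 1.96, SE 0.15, adjusted p = 0.00022), Lag3 at 16.5, 10.7 and 10.2 FPKM in 5xFAD against 2.6, 2.96 and 2.07 FPKM in wildtype (log2 fold change 2.07, SE 0.25, adjusted p = 0.0015) and Havcr2 (TIM-3) at 5.2, 4.03 and 4.07 FPKM in 5xFAD and 1.34, 1.51 and 1.3 FPKM in wildtype (log2 fold change 1.38, SE 0.17, adjusted p = 0.0018). Beside them, the T cell receptor chains Cd3e and Cd3d stood at or under 0.265 FPKM in each library, and 4 of the 33 genes listed for T and NK cells were high enough to be tested, none of them called.

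Lysosomal proteases were higher. Of 17 cathepsins and cystatins 11 rose and none fell (median 0.87). Ctsd, an aspartic protease, had 962, 916 and 867 FPKM in 5xFAD against 212, 238 and 264 FPKM in wildtype (log2 fold change 1.95, SE 0.17, adjusted p = 0.00057). Ctss, a cysteine protease of antigen-presenting cells, had 349, 307 and 308 FPKM in 5xFAD and 87.6, 95.9 and 84 FPKM in wildtype (log2 fold change 1.84, SE 0.20, adjusted p = 0.00096). Ctsz had 117, 124 and 120.3 FPKM in 5xFAD against 26.9, 30.9 and 34 FPKM in wildtype (log2 fold change 1.97, SE 0.19, adjusted p = 0.00075). Ctsb rose by less (0.69), while Ctsf (0.13, adjusted p = 0.57) and Cst3, the secreted inhibitor cystatin C (0.40, adjusted p = 0.41), did not pass. Without wildtype replicate 1 or 2, Ctsb was not called (adjusted p = 0.063 to 0.064). Of 38 other lysosomal hydrolases and membrane proteins 18 rose, with a lower median of 0.52. The beta-hexosaminidase subunit Hexa (1.15), the mannosidase Man2b1 (1.28), progranulin Grn (1.35) and the divalent metal transporter Slc11a1 (1.99) were among them. Lamp1 (0.30, adjusted p = 0.18), the cholesterol transporter Npc1 (-0.04, adjusted p = 0.85) and the proton pump subunit Atp6v1a (-0.00, adjusted p = 0.99), found in lysosomes of every cell, did not pass.

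Cholesterol synthesis changed by smaller steps. Of 24 members 10 rose and none fell, with a median of 0.34. Sqle, squalene epoxidase, had 33.1, 30.7 and 32.4 FPKM in 5xFAD and 23.2, 21.5 and 22.3 FPKM in wildtype (log2 fold change 0.51, SE 0.07, adjusted p = 0.0043). Nsdhl, a later enzyme of the pathway, had 17.9, 19.5 and 18.4 FPKM in 5xFAD against 10.5, 12.7 and 11.9 FPKM in wildtype (log2 fold change 0.65, SE 0.10, adjusted p = 0.0059). The sterol sensor Insig1 rose by 0.50. The call of Insig1 was lost without 5xFAD replicate 3 (adjusted p = 0.0505). Leaving out 1 library left 4 to 6 of the 10 calls, 6 without 5xFAD replicate 2, 5 without 5xFAD replicate 1 or wildtype replicate 3, and 4 without any one of the other 3. Among 23 genes of lipid efflux and storage 7 rose, including Abca1, the cholesterol exporter, at 5.57, 4.52 and 4.83 FPKM in 5xFAD and 3.6, 3.22 and 2.79 FPKM in wildtype (log2 fold change 0.57, SE 0.12, adjusted p = 0.032) and the droplet coat protein Plin2 at 4.29, 5.48 and 5.36 FPKM in 5xFAD against 2.63, 3.03 and 3.06 FPKM in wildtype (log2 fold change 0.70, SE 0.12, adjusted p = 0.0078). Cd36, a fatty acid and scavenger receptor, had 1.41, 1.33 and 2.32 FPKM in 5xFAD and 0.462, 0.519 and 0.358 FPKM in wildtype (log2 fold change 1.18, SE 0.22, adjusted p = 0.015). Cd36 did not pass without wildtype replicate 1 or 3 (adjusted p = 0.051 to 0.062). Without 5xFAD replicate 1, 2 or 3 or wildtype replicate 2 or 3, Abca1 was not called (adjusted p = 0.051 to 0.11).

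In complement, the initiating C1q chains were among the most abundant differences. C1qa had 259, 224 and 244 FPKM in 5xFAD against 48.6, 60.9 and 56.6 FPKM in wildtype (log2 fold change 2.12, SE 0.21, adjusted p = 0.0008). C1qb (1.94) and C1qc (2.06) rose alike. C4b, the next component, had 33.6, 20.4 and 23.3 FPKM in 5xFAD and 6.58, 7.11 and 7.25 FPKM in wildtype (log2 fold change 1.78, SE 0.15, adjusted p = 0.0005), and its near-identical neighbour C4a means that reads may be split between them. C3ar1, the receptor of a C3 fragment, had 3.85, 3.99 and 3.12 FPKM in 5xFAD against 0.535, 0.622 and 0.594 FPKM in wildtype (log2 fold change 1.93, SE 0.16, adjusted p = 0.0004). C3 itself was low, at 1.26, 1.22 and 0.822 FPKM in 5xFAD and 0.724, 0.835 and 0.594 FPKM in wildtype, and did not pass (adjusted p = 0.3). In all, 10 of 19 members rose and none fell (median 1.08), among them the regulator Cd59a (1.77). The call of Cd59a was lost without 5xFAD replicate 2 or wildtype replicate 1 or 2 (adjusted p = 0.053 to 0.076).

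MHC class II genes, which present peptides of ingested proteins, had 10 of 11 tested members higher, with a median of 1.84. Cd74, the invariant chain, had 82.6, 29.8 and 93.3 FPKM in 5xFAD against 2.17, 5.69 and 8.54 FPKM in wildtype (log2 fold change 3.54, SE 0.54, adjusted p = 0.0051). The chain gene H2-Ab1 had 17.8, 10.4 and 32 FPKM in 5xFAD and 1.13, 2.15 and 3.16 FPKM in wildtype (log2 fold change 2.89, SE 0.43, adjusted p = 0.0049), and H2-Aa had 26, 13.4 and 32 FPKM in 5xFAD against 1.39, 2.74 and 5.03 FPKM in wildtype (log2 fold change 2.82, SE 0.43, adjusted p = 0.0051). All 3 were lowest in replicate 2 among the 5xFAD libraries, and in wildtype all were lowest in replicate 1. H2-DMa, a peptide exchange factor, did not pass (0.47, adjusted p = 0.18). Of 18 members of MHC class I presentation 13 rose (median 1.18). B2m, the shared light chain, had 634, 600.3 and 614 FPKM in 5xFAD and 195, 217 and 192 FPKM in wildtype (log2 fold change 1.61, SE 0.20, adjusted p = 0.002) and varied little within 5xFAD. H2-D1 (1.56) and H2-K1 (1.36), the heavy chains, the peptide transporter Tap1 (1.37) and the immunoproteasome subunit Psmb8 (1.80) rose. Genes of the H2 family are similar in sequence, so reads may be shared between them. Tap1 did not pass without wildtype replicate 1, 2 or 3 (adjusted p = 0.061 to 0.082).

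**Figure D3:**
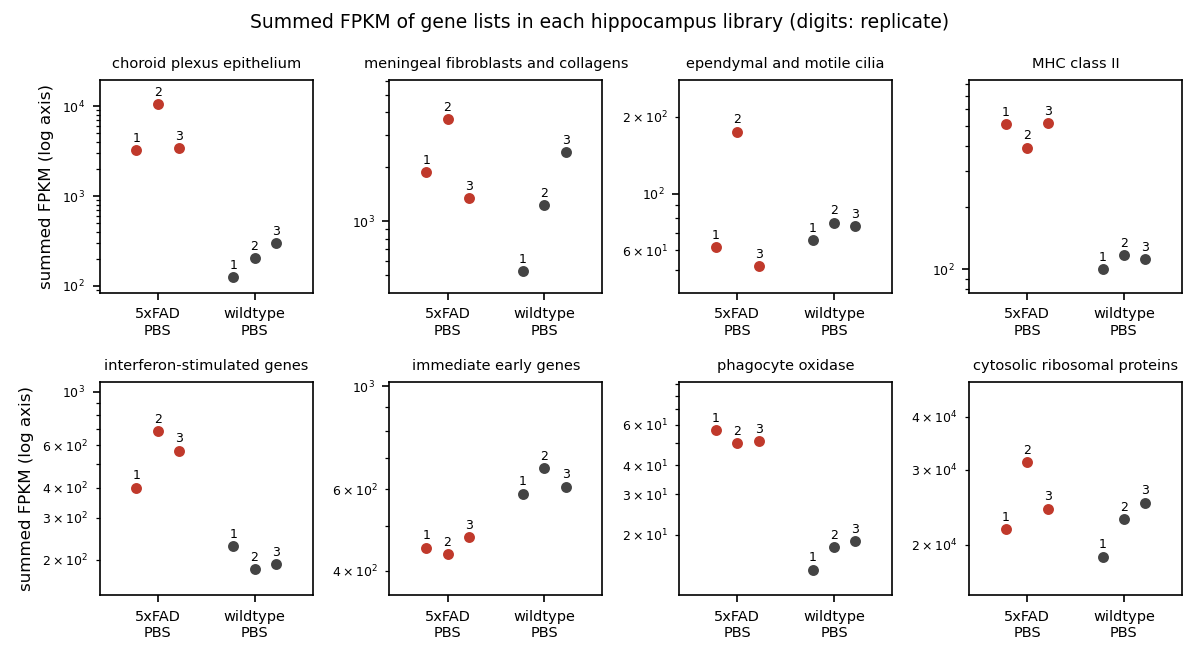
Summed FPKM (vertical, log axis) of 8 gene lists in each hippocampus library, 5xFAD PBS in red and wildtype PBS in grey, with the replicate number beside each point. MHC class II is lowest and interferon-stimulated genes highest in 5xFAD replicate 2, which also has the highest choroid plexus sum (10509 FPKM) and the highest ribosomal protein sum.

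Promoters of 3 interferon-stimulated genes that rose are given first, since the levels of this group are described next. The promoters below run from 250 bases before to 50 bases after the gene's start, on the gene's strand, from RefSeq on build GRCm38.p6. Capitals mark matches to the ISRE core, TTTC and TTTC with 2 bases between them, on either strand, and the genes were chosen among called members after the matches had been seen.
Bst2, chr8:71537423-71537722, minus strand: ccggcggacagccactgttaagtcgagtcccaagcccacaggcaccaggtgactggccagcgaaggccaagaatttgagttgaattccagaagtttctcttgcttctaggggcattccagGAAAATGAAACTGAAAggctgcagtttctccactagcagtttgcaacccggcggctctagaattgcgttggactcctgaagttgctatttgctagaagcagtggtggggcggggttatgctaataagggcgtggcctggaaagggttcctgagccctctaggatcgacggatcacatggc
Ifit3, chr19:34583279-34583578, plus strand: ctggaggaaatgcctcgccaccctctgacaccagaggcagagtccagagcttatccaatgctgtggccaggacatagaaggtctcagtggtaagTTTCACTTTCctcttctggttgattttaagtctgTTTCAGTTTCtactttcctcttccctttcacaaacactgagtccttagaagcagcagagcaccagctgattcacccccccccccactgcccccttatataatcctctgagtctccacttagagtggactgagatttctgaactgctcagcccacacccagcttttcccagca
Ifih1, chr2:62646206-62646505, minus strand: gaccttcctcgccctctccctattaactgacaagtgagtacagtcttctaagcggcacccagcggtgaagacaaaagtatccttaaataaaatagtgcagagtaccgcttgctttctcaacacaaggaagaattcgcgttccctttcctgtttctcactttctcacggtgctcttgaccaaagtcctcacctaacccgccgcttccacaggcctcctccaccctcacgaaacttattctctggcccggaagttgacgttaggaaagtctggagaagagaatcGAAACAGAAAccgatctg
Both matches in Bst2 overlap in 1 run. Among 39 tested interferon-stimulated genes with a promoter in the table, 19 held a match, and 13 of the 23 called did, against 3.99% of all 27025 genes. Among tested members with a promoter, 9 of 10 interferon-inducible GTPases and 5 of 16 MHC class I genes held a match. A match is a description of the sequence, not of factor binding.

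Of 50 tested interferon-stimulated genes 31 rose and none fell, and all 50 had a log2 fold change above 0 (median 1.17). Bst2, tetherin, which holds budding viruses at the cell surface, had 22.1, 47.6 and 42.6 FPKM in 5xFAD against 8.08, 6.21 and 7.8 FPKM in wildtype (log2 fold change 2.21, SE 0.25, adjusted p = 0.0011). Ifit3, an antiviral protein of the Ifit family, had 16.8, 25.7 and 27.5 FPKM in 5xFAD and 8.13, 6.23 and 4.98 FPKM in wildtype (log2 fold change 1.77, SE 0.29, adjusted p = 0.0077). Ifih1, the sensor MDA5 of double-stranded RNA, had 2.43, 2.71 and 2.34 FPKM in 5xFAD against 1.19, 0.796 and 0.549 FPKM in wildtype (log2 fold change 1.18, SE 0.18, adjusted p = 0.0056). In each of these the lowest 5xFAD library was replicate 1 or 3, and the groups stayed apart. The secreted lectin ligand Lgals3bp had 48.5, 73.3 and 60.4 FPKM in 5xFAD and 15, 9.42 and 9.8 FPKM in wildtype (log2 fold change 2.37, SE 0.19, adjusted p = 0.00035), the largest fold in the list. The deconjugating enzyme Usp18 (1.87), Trim30a (1.65), Ifitm3 (1.39), Isg15 (1.56) and the kinase Eif2ak2 (1.23) rose too. Without 5xFAD replicate 2 or wildtype replicate 2 or 3, Usp18 was not called (adjusted p = 0.059 to 0.066). The call of Isg15 was lost without 5xFAD replicate 2 or 3 or wildtype replicate 1, 2 or 3 (adjusted p = 0.056 to 0.12).

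The transcription factor Irf7, at 6.15, 10.1 and 10.6 FPKM in 5xFAD against 6.23, 2.61 and 1.71 FPKM in wildtype, did not pass (adjusted p = 0.082). Irf7 overlapped, since wildtype replicate 1 lay between the 5xFAD libraries. The summed list stood at 399.9, 685 and 570.3 FPKM in 5xFAD, against 229, 183 and 192 FPKM in wildtype, lowest in replicate 1 of 5xFAD and highest in replicate 1 of wildtype. The count rests on single libraries: leaving out wildtype replicate 2 gave 14, wildtype replicate 3 gave 15, 5xFAD replicate 2 gave 18 and 5xFAD replicate 3 gave 19. Of 14 interferon-inducible GTPases, which attack membranes around pathogens, 4 rose while all 14 were above 0 (median 1.43), led by Tgtp1 at 2.6, 7.59 and 3.12 FPKM in 5xFAD and 0.546, 0.198 and 0.434 FPKM in wildtype (log2 fold change 2.35, SE 0.33, adjusted p = 0.0033). Its near-identical neighbour Tgtp2, at 1.54, 1.98 and 3.52 FPKM in 5xFAD against 0.642, 0.435 and 0.594 FPKM in wildtype, did not pass (1.37, adjusted p = 0.11), and reads may be split between them. Without 5xFAD replicate 2 or 3, or wildtype replicate 2 or 3, 1 of the 4 calls was left, and with the length trend removed 7 of the 14 rose.

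Chemokines of microglia rose by large factors. Ccl3 had 17.3, 14.4 and 10.4 FPKM in 5xFAD and 0.699, 0.882 and 0.682 FPKM in wildtype (log2 fold change 3.51, SE 0.25, adjusted p = 0.00019), Ccl4 had 4.03, 2.07 and 2.25 FPKM in 5xFAD against 0.279, 0.338 and 0.172 FPKM in wildtype (log2 fold change 2.06, SE 0.28, adjusted p = 0.0031) and Ccl12 had 4.79, 8.36 and 14.5 FPKM in 5xFAD and 1.32, 1.3 and 0.741 FPKM in wildtype (log2 fold change 2.48, SE 0.53, adjusted p = 0.027), with replicate 3 highest for the last. Ccl12 did not pass without 5xFAD replicate 2 or 3 or wildtype replicate 1, 2 or 3 (adjusted p = 0.074 to 0.099). Of 17 tested chemokines 6 rose and 1 fell. The one that fell was Cx3cl1, fractalkine, the neuronal ligand of Cx3cr1, at 172, 153 and 176 FPKM in 5xFAD against 208, 219.6 and 213 FPKM in wildtype (log2 fold change -0.35, SE 0.08, adjusted p = 0.038). With any one of the 6 libraries left out, Cx3cl1 was not called (adjusted p = 0.063 to 0.16). Of 26 genes of cytokines and inflammasomes 10 rose, led by the adaptor Pycard at 3.03, 3.1 and 3.98 FPKM in 5xFAD and 0.919, 1.16 and 1.06 FPKM in wildtype (log2 fold change 1.32, SE 0.14, adjusted p = 0.00096) and the interleukin-10 receptor Il10ra (1.10). Il1b was low in both groups, at 0.286, 0.287 and 0.526 FPKM in 5xFAD against 0.203, 0.514 and 0.377 FPKM in wildtype (log2 fold change 0.01, adjusted p = 0.99), and Tnf was under the filter, with 0.198 FPKM at most. Of the neutrophil and monocyte list, S100a8, a calcium-binding protein, had 1.07, 1.42 and 1.74 FPKM in 5xFAD and 0.0782, 0.142 and 0.217 FPKM in wildtype (log2 fold change 1.55, SE 0.16, adjusted p = 0.00088), while Ly6g, which defines mouse neutrophils, was at 0 in 5 of the 6 libraries and at 0.0317 FPKM in 5xFAD replicate 3.

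Among astrocyte genes, 7 of 27 reactive and 2 of 22 identity genes rose (25.9% and 9.09%, against 4.19% of all tested genes). With the length trend removed 13 and 2 did. Gfap, the filament protein of reactive astrocytes, had 480.1, 404 and 354 FPKM in 5xFAD against 115, 135 and 139 FPKM in wildtype (log2 fold change 1.66, SE 0.16, adjusted p = 0.00075). Serpina3n, a protease inhibitor, had 66.9, 48.5 and 55.2 FPKM in 5xFAD and 24.1, 24.4 and 29.3 FPKM in wildtype (log2 fold change 1.11, SE 0.15, adjusted p = 0.0025). The median of the reactive list was 0.77, and some of its genes, such as C4b, Psmb8 and Cxcl10, are shared with the complement, MHC class I and interferon lists. Of 22 identity genes 2 rose, the water channel Aqp4 at 45.4, 36.4 and 42.2 FPKM in 5xFAD against 28.2, 28.4 and 22.4 FPKM in wildtype (log2 fold change 0.64, SE 0.12, adjusted p = 0.012) and the amino acid transporter Slc7a10 (0.72), with a median of 0.08. The glutamate transporter Slc1a3 stood at 125, 103 and 106 FPKM in 5xFAD and 101, 107 and 109.6 FPKM in wildtype (adjusted p = 0.75). In brain endothelium 2 of 24 genes rose, or 8.33% against 4.19% of all tested genes. These were the adhesion molecules Icam1 and Vcam1, which microglia and astrocytes can also express. Icam1 had 3.13, 2.92 and 2.55 FPKM in 5xFAD against 0.642, 1.02 and 1.26 FPKM in wildtype (log2 fold change 1.21, SE 0.21, adjusted p = 0.01). Vcam1 had 17.2, 23.9 and 15.4 FPKM in 5xFAD and 7.54, 9.1 and 10.4 FPKM in wildtype (log2 fold change 1.01, SE 0.19, adjusted p = 0.014). The endothelial tight junction gene Cldn5 stood at 22, 26.4 and 16.1 FPKM in 5xFAD against 19.7, 19.9 and 24.1 FPKM in wildtype (adjusted p = 0.99). The call of Vcam1 was lost without wildtype replicate 1 or 2 (adjusted p = 0.055 to 0.058). Slc7a10 did not pass without 5xFAD replicate 1 or 2 or wildtype replicate 1, 2 or 3 (adjusted p = 0.087 to 0.16).

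**Figure D4:**
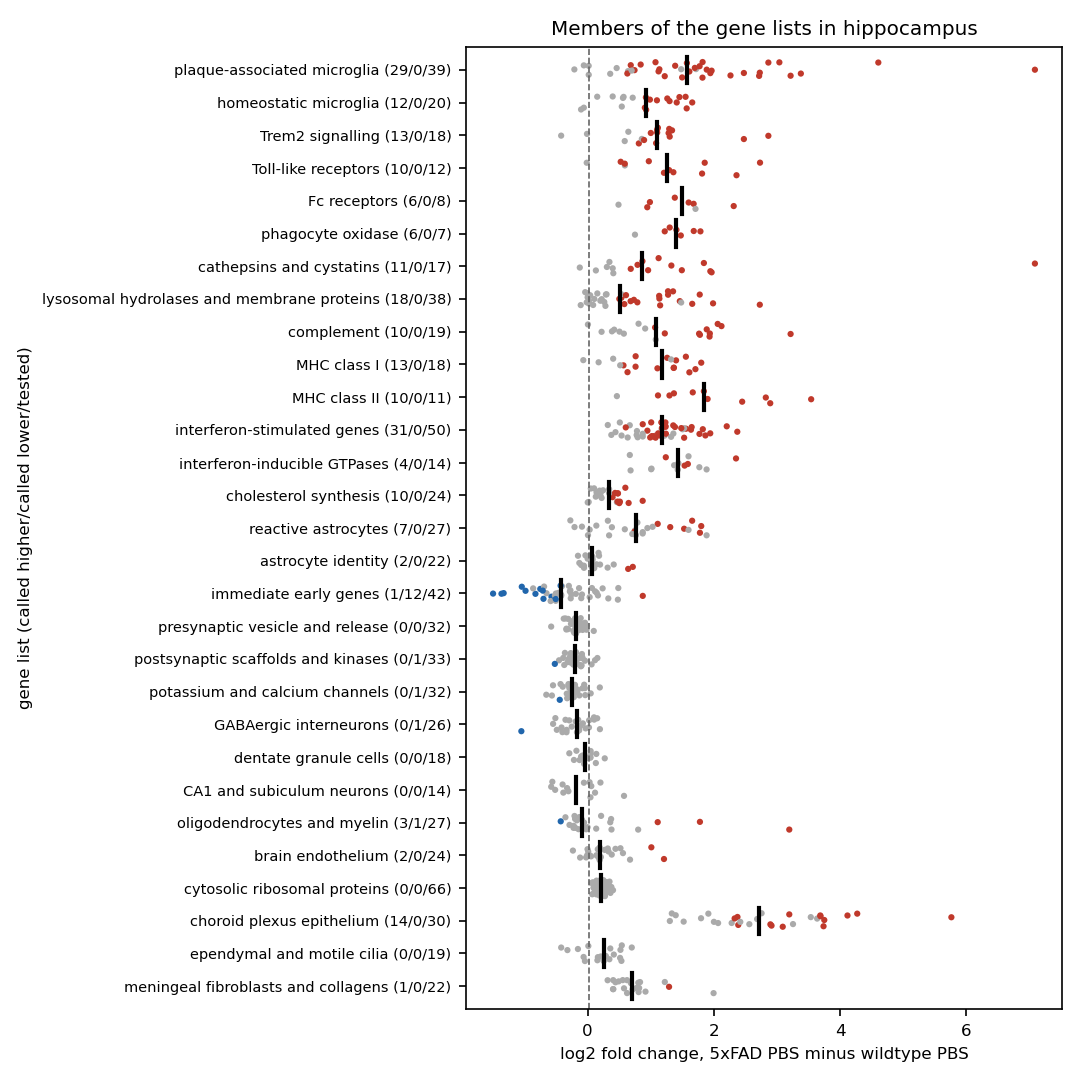
Log2 fold change (5xFAD PBS minus wildtype PBS, horizontal) of the tested members of 29 gene lists, a point per gene, with red for genes called higher, blue for genes called lower, grey for the rest, a black bar at the list's median and a dashed line at the median of all tested genes (0.02). Microglial and interferon lists lie to the right, and among immediate early genes 12 blue points lie to the left.

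Immediate early genes formed the main group among the falls, with 12 of 42 lower, 1 higher and a median of -0.42, against 0.406% of all tested genes called lower. Arc, a regulator of glutamate receptor uptake at synapses, had 15.9, 17.2 and 21.3 FPKM in 5xFAD and 43.5, 61.5 and 51.5 FPKM in wildtype (log2 fold change -1.50, SE 0.17, adjusted p = 0.0011). Nr4a1, a nuclear receptor, had 5.17, 4.63 and 5.9 FPKM in 5xFAD against 12.3, 15.5 and 14.9 FPKM in wildtype (log2 fold change -1.36, SE 0.13, adjusted p = 0.00075). Fos, a subunit of the AP-1 transcription factor, had 2.45, 2.7 and 4.17 FPKM in 5xFAD and 7.79, 10.2 and 7.35 FPKM in wildtype (log2 fold change -1.33, SE 0.22, adjusted p = 0.0086). In these the highest 5xFAD library, replicate 3, stayed under the lowest wildtype one.
Dusp5, a phosphatase of nuclear ERK, had 5.62, 5.29 and 4.24 FPKM in 5xFAD against 9.51, 8.75 and 13.5 FPKM in wildtype (log2 fold change -0.98, SE 0.16, adjusted p = 0.0078), and Junb had 23.1, 21.9 and 24.1 FPKM in 5xFAD and 33.2, 43.4 and 41.2 FPKM in wildtype (log2 fold change -0.75, SE 0.12, adjusted p = 0.0065). Egr1 had 23.4, 21.9 and 31.7 FPKM in 5xFAD against 48.4, 69 and 43.7 FPKM in wildtype (log2 fold change -1.04, SE 0.20, adjusted p = 0.018). Fosb (-0.82), Egr4 (-0.70), Klf10 (-0.71), Egr3 (-0.57), Dusp6 (-0.50) and Gadd45b (-0.43) also fell. Atf3, a stress-induced member of the list, rose instead, with 2.34, 1.75 and 1.74 FPKM in 5xFAD and 1.02, 0.606 and 0.875 FPKM in wildtype (log2 fold change 0.88, SE 0.15, adjusted p = 0.011). Npas4, at 0.838, 0.872 and 1.37 FPKM in 5xFAD against 1.8, 2.37 and 0.977 FPKM in wildtype, did not pass (adjusted p = 0.35), nor did the growth factor Bdnf, at 6.42, 4.93 and 5.51 FPKM in 5xFAD and 8.18, 6.67 and 4.38 FPKM in wildtype (adjusted p = 0.74). Both overlapped between groups. The number of falls was 7 without 5xFAD replicate 2 or wildtype replicate 2 and 8 without 5xFAD replicate 1. Without 5xFAD replicate 1 or 2 or wildtype replicate 2, Egr1 was not called (adjusted p = 0.064 to 0.07). The call of Fosb was lost without 5xFAD replicate 1 or 2 or wildtype replicate 1 or 2 (adjusted p = 0.057 to 0.08). Egr3 did not pass without 5xFAD replicate 2 or 3 or wildtype replicate 1 or 2 (adjusted p = 0.057 to 0.12). Without 5xFAD replicate 1, 2 or 3 or wildtype replicate 2 or 3, Dusp6 was not called (adjusted p = 0.058 to 0.12). The call of Gadd45b was lost without 5xFAD replicate 1, 2 or 3 or wildtype replicate 2 or 3 (adjusted p = 0.065 to 0.14).

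The promoters of 3 of the falling genes hold matches to the elements named above. Capitals mark the CRE half-site TGACG on either strand and, in Dusp5, also the CArG box. These genes too were chosen among called members after the matches had been seen.
Nr4a1, chr15:101266596-101266895, plus strand: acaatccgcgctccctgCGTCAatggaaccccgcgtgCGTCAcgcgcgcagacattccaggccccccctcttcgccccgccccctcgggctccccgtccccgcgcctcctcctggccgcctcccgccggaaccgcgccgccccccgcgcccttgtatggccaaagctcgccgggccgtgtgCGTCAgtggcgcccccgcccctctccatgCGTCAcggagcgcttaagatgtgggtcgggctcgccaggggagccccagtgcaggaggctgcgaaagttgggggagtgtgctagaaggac
Fos, chr12:85473640-85473939, plus strand: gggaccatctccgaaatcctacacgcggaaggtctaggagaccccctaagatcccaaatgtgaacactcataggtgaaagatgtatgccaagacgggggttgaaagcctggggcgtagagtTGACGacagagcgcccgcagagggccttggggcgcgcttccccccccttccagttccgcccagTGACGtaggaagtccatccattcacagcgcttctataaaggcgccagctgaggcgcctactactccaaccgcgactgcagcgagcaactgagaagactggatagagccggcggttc
Dusp5, chr19:53528895-53529194, plus strand: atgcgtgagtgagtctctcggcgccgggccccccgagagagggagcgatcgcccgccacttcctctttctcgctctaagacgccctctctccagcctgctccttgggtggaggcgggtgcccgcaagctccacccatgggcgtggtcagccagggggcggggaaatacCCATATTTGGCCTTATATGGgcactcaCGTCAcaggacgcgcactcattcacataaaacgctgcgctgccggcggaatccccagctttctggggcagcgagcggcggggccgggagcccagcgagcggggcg
Nr4a1 held 4 half-sites, Fos 2, and Dusp5 held a pair of adjacent CArG boxes and 1 half-site. Of 34 tested immediate early genes with a promoter in the RefSeq set, 24 held a half-site, against 23% of all genes. Of the 9 that were called, 7 did, a share near that of all tested members. The 9 were counted in either direction and include Atf3, which rose. The full element TGACGTCA was found in 4 of the 34 and a CArG box in 3, against 2.03% and 1.81% of all genes. Among the 9 called, 0 held the full element and 1 held a CArG box. The half-site lies within the full element, so matches to both are not independent.

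**Figure D5:**
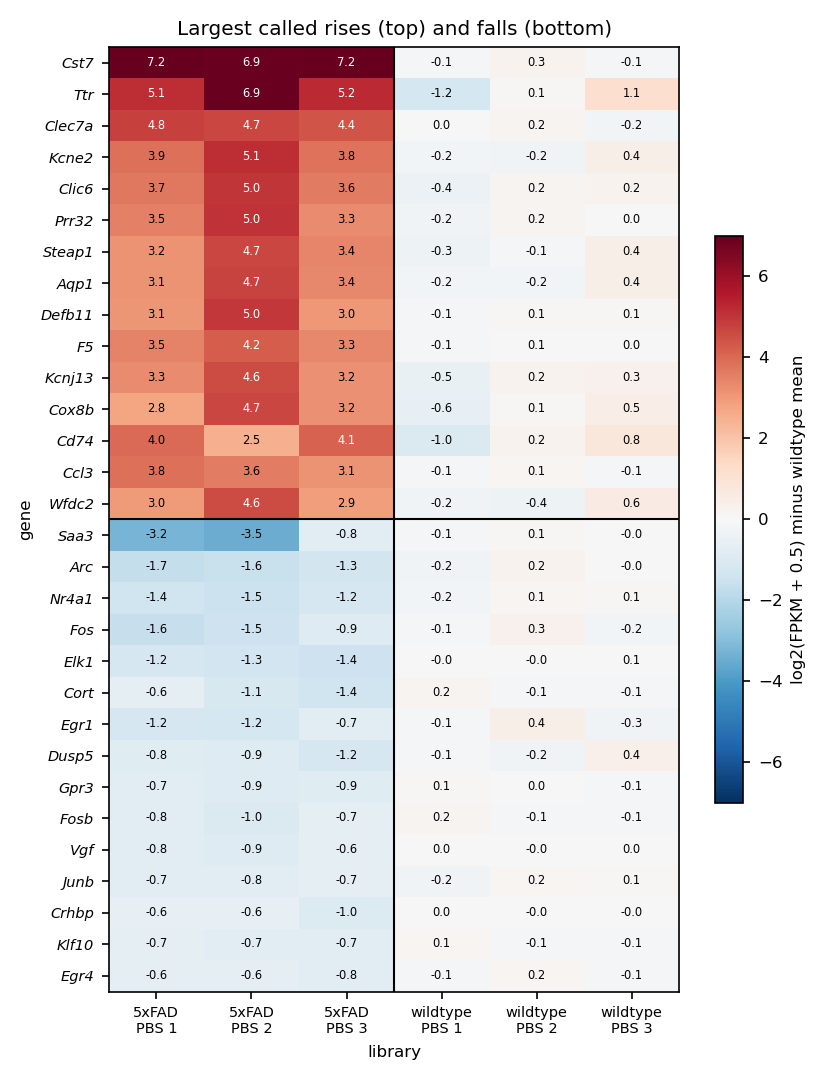
Log2(FPKM + 0.5) minus the wildtype mean (colour and printed value) in each library, for the 15 largest rises (top) and 15 largest falls (bottom) among called genes with named symbols and at least 1 FPKM in the higher group; columns are 5xFAD PBS 1 to 3, then wildtype PBS 1 to 3. The choroid plexus genes are highest in 5xFAD replicate 2, Cd74 is lowest there, and Saa3 falls less in 5xFAD replicate 3.

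Further falls are given gene by gene. In the list of activity-regulated peptides and secreted factors 2 of 25 tested members fell and 1 rose. Over all tested genes 0.406% fell and 4.19% rose. Of the 25, 19 lay below 0 (median -0.18), and with the length trend removed 7 fell and 1 rose. Vgf, a secreted neuronal protein induced by activity, had 27.8, 25.4 and 31.2 FPKM in 5xFAD against 48.4, 47.4 and 48.6 FPKM in wildtype (log2 fold change -0.77, SE 0.08, adjusted p = 0.0011), with little spread in wildtype. Cort, cortistatin, a peptide of a subset of interneurons, had 5.16, 3.62 and 2.85 FPKM in 5xFAD and 9.76, 7.49 and 7.92 FPKM in wildtype (log2 fold change -1.05, SE 0.18, adjusted p = 0.0089). Crhbp, which binds corticotropin-releasing hormone and marks interneurons, had 14, 13.9 and 10.6 FPKM in 5xFAD against 21.6, 20.9 and 21 FPKM in wildtype (log2 fold change -0.71, SE 0.12, adjusted p = 0.0077). These 3 were called in every fit that left out a library. Saa3, an acute phase apolipoprotein, had 0.899, 0.681 and 7.27 FPKM in 5xFAD and 12, 13.7 and 12.7 FPKM in wildtype (log2 fold change -2.50, SE 0.57, adjusted p = 0.038). Saa3 did not pass without 5xFAD replicate 1 or 2 or wildtype replicate 1, 2 or 3 (adjusted p = 0.1 to 0.12). Elk1, a partner of serum response factor, had 11.5, 10.4 and 9.46 FPKM in 5xFAD against 26.5, 25.8 and 27.6 FPKM in wildtype (log2 fold change -1.31, SE 0.26, adjusted p = 0.021), and Gpr3, a receptor active without ligand, had 0.989, 0.805 and 0.86 FPKM in 5xFAD and 2.06, 2.02 and 1.79 FPKM in wildtype (log2 fold change -0.83, SE 0.19, adjusted p = 0.041). With any one of the 6 libraries left out, Elk1 was not called (adjusted p = 0.053 to 0.074). The call of Gpr3 was lost with any one of the 6 libraries left out (adjusted p = 0.082 to 0.14).

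Few synaptic genes passed. None of 32 presynaptic genes, 18 AMPA and NMDA receptor genes or 16 GABA-A receptor genes was called, 1 of 33 postsynaptic genes fell, and so did 1 of 32 channel genes. Over all tested genes 0.406% fell. Most members lay below 0 without passing: 31 of the presynaptic, 30 of the postsynaptic and 30 of the channel genes. So did 14 of the AMPA and NMDA and 12 of the GABA-A receptor genes. With the length trend removed, 3 postsynaptic and 3 channel genes fell. Itpka, a kinase of dendritic spines, had 109, 99.7 and 90.7 FPKM in 5xFAD against 126, 140.0 and 165 FPKM in wildtype (log2 fold change -0.52, SE 0.12, adjusted p = 0.038), and the potassium channel Kcnh3 fell by 0.44 on the log2 scale. Itpka did not pass without 5xFAD replicate 1, 2 or 3 or wildtype replicate 2 or 3 (adjusted p = 0.051 to 0.12). Without 5xFAD replicate 2 or 3 or wildtype replicate 2 or 3, Kcnh3 was not called (adjusted p = 0.072 to 0.12). The medians were -0.19 for presynaptic, -0.18 for AMPA and NMDA receptor, -0.21 for postsynaptic and -0.24 for channel genes. With the trend over gene length removed from each library, they were -0.17, -0.12, -0.12 and -0.13. The vesicular glutamate transporter Slc17a7 stood at 477, 428 and 432 FPKM in 5xFAD and 466, 493 and 519.5 FPKM in wildtype (adjusted p = 0.44), and the NMDA receptor subunit Grin1 at 84.3, 69.7 and 81.8 FPKM in 5xFAD against 95.5, 98 and 102 FPKM in wildtype (log2 fold change -0.33, adjusted p = 0.13). Of the 26 genes on the interneuron list Cort fell, and 4 did with the length trend removed. Crhbp, which fell as given above, is not on this list. Sst, somatostatin, stood at 243, 287 and 262 FPKM in 5xFAD and 335, 313 and 411 FPKM in wildtype (adjusted p = 0.09), and passed with the length trend removed (-0.56, adjusted p = 0.0045).

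With the length trend removed 1 gene of CA2 and CA3 fell, and otherwise no marker of the hippocampal subfields was called in either fit, among 18 of dentate granule cells, 14 of CA1 and subiculum and 16 of CA2 and CA3, nor among 18 genes of adult neurogenesis. Wfs1, a marker of CA1 neurons, stood at 32.6, 30.1 and 44.5 FPKM in 5xFAD against 48.7, 49.5 and 53.2 FPKM in wildtype (log2 fold change -0.51, adjusted p = 0.09). Dcx, doublecortin of immature neurons, stood at 1.35, 0.815 and 1.3 FPKM in 5xFAD and 1.18, 1.25 and 0.84 FPKM in wildtype (adjusted p = 0.93) and overlapped fully. In the myelin list 3 of 27 genes rose and 1 fell, against 5 and 2 with the length trend removed. Over all tested genes 4.19% rose and 0.406% fell. Mobp, a myelin protein, fell, with 65.9, 71.1 and 69.7 FPKM in 5xFAD against 96.8, 95.1 and 86.1 FPKM in wildtype (log2 fold change -0.42, SE 0.07, adjusted p = 0.01), while Mbp stood at 745, 947 and 787 FPKM in 5xFAD and 885, 1007 and 957 FPKM in wildtype (adjusted p = 0.49). The rises were C4b and Serpina3n, named above, and Enpp2 at 432, 1060.1 and 454 FPKM in 5xFAD against 55.7, 72.1 and 65.9 FPKM in wildtype (log2 fold change 3.20, SE 0.72, adjusted p = 0.037), a lipid-modifying enzyme that choroid plexus also makes and that was highest in the library with the highest choroid sum. The call of Mobp was lost without wildtype replicate 2 (adjusted p = 0.063). Enpp2 did not pass with any one of the 6 libraries left out (adjusted p = 0.072 to 0.13).

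Choroid plexus genes supplied 14 calls, all higher, of 30 tested, with a median of 2.72 and all 30 above 0, and 23 were called with the length trend removed. Ttr, a thyroid hormone carrier and the main product of this epithelium, had 2532, 8684 and 2697 FPKM in 5xFAD and 29.7, 76.5 and 159 FPKM in wildtype (log2 fold change 5.76, SE 1.12, adjusted p = 0.018). The chloride channel protein Clic6 had 19.9, 50.1 and 19.2 FPKM in 5xFAD against 0.68, 1.27 and 1.36 FPKM in wildtype (log2 fold change 4.12, SE 0.78, adjusted p = 0.016), and the potassium channel subunit Kcne2 had 9.67, 24.2 and 9.38 FPKM in 5xFAD and 0.121, 0.0944 and 0.433 FPKM in wildtype (log2 fold change 4.27, SE 0.91, adjusted p = 0.028). Also among the 15 largest rises were Prr32 (3.97), Steap1 (3.75), the water channel Aqp1 (3.74), Defb11 (3.69) and coagulation factor F5 (3.69). The potassium channel Kcnj13 (3.69), Cox8b (3.56) and Wfdc2 (3.48) were there too. Each was highest in 5xFAD replicate 2. Cox8b, which is not on the choroid plexus list, was called in every fit that left out a library, while no member of the list was. The count of 14 fell to 3 without 5xFAD replicate 1 or 3, to 1 without 5xFAD replicate 2, to 2 without wildtype replicate 3 and to 0 without wildtype replicate 1 or 2. Without 5xFAD replicate 2 or wildtype replicate 1 or 2, Ttr was not called (adjusted p = 0.066 to 0.074). The call of Clic6 was lost without 5xFAD replicate 2 or wildtype replicate 1, 2 or 3 (adjusted p = 0.051 to 0.065). Kcne2 did not pass with any one of the 6 libraries left out (adjusted p = 0.061 to 0.1). In the vesicle-treated 5xFAD group, Ttr stood at 5532, 2207 and 178 FPKM.
Ependymal genes, which line the ventricles beside the choroid plexus, summed to 61.6, 175 and 52.0 FPKM in 5xFAD against 65.8, 76.8 and 74.7 FPKM in wildtype, and 0 of 19 was called. Meningeal fibroblast genes summed to 1867, 3662 and 1336 FPKM in 5xFAD against 529, 1226 and 2412 FPKM in wildtype. Of 22 tested, Ogn was called (1.29), or 4.55%, near the 4.19% of all tested genes that rose. All 22 had a log2 fold change above 0 (median 0.70). Without 5xFAD replicate 1 or 2 or wildtype replicate 1 or 2, Ogn was not called (adjusted p = 0.066 to 0.1). Whether the choroid plexus and meningeal values reflect the dissection was not tested.

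Of the transgene's own parts, Thy1, a surface protein whose promoter drives the transgene, had 1330.1, 1292 and 1075 FPKM in 5xFAD against 432, 459 and 506 FPKM in wildtype (log2 fold change 1.40, SE 0.13, adjusted p = 0.00062). App had 92.1, 87.8 and 93.3 FPKM in 5xFAD and 100.1, 102 and 102 FPKM in wildtype, and did not pass (-0.16, adjusted p = 0.27); its log2 fold change was 0.03 with the length trend removed. Reads of human transgene sequence were not analysed here. Thy1 was the only call among 22 genes of APP processing, or 4.55%, near the 4.19% of all tested genes that rose. With the length trend removed 2 of the 22 rose and 1 fell. The protease Bace1 had a log2 fold change of -0.23 (adjusted p = 0.32) and Adam10 of 0.04 (adjusted p = 0.87).

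The genotype difference in hippocampus was then tested against the same contrast in prefrontal cortex, in 1 fit of all 18 libraries. None of 13574 genes (0%) passed at an adjusted p of 0.05 in limma, with 787 at an unadjusted p under 0.05. The limma-voom fit on recovered reads also called 0, with 654 unadjusted. Of the 611 hippocampal calls 217 were called in the same direction in prefrontal cortex, and 0 in the opposite direction. That is 35.5% of the hippocampal calls and 84.8% of the 256 cortical ones, where 1.96% of 13055 tested genes were called. Interferon-stimulated genes had 31 of 50 members higher in hippocampus and 13 of 47 in cortex. MHC class II had 10 of 11 against 6 of 11, and immediate early genes had 12 of 42 lower in hippocampus against 12 of 41 in cortex. For these lists no difference between tissues was shown, since no member passed the test of the difference.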

How the data were processed

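The deposited table holds FPKM for 18683 genes in 18 libraries, made by the authors from total RNA. Tools were fastp, HISAT2 and HTSeq and the build was GRCm39, per the submitters' processing notes, whose versions and settings are unknown here. The sources used here give no annotation, strand setting or gene filter, so overlapping genes, antisense genes and near-identical families (H2, Ifit, Oas, Gbp) are uncertain. Each library's column was matched to a sample by its label.

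FPKM is not a count, so tests used limma 3.58.1 (R 4.3.3) on log2(FPKM + 0.5), with a mean per group over the 9 hippocampus libraries, eBayes with an intensity trend, two-sided, and Benjamini-Hochberg adjustment over the 13305 genes reaching 0.5 FPKM in 3 or more of the 9 libraries. Every adjusted p comes from limma. The difference between tissues was fitted on all 18 libraries (13574 genes). The fit was tested on simulated data.

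Depth was recovered from the deposited FPKM: within each gene the values were whole multiples of 1 step for 100% of genes (relative tolerance 1e-06), giving 32616586 to 35937124 reads in listed genes for the 6 libraries. 1 read on a gene of median length (3221 bases) was worth 0.00864 to 0.00952 FPKM.

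The members and the 57 gene lists were chosen with earlier results of these data known, so lists are described by counts and medians beside the same over all genes. Named were App, Thy1 and Cd36, the 15 largest rises and falls among called genes without overlap, averaging 1 FPKM or more in the higher group and with a named symbol, and, per list, up to 8 members with the smallest adjusted p plus defining members. Some further list members given as not called, or as folds beside these, were chosen after their values were seen. Promoters came from a RefSeq table on GRCm38.p6, another build than the authors', so no coordinates are given for the data. Pseudocount, filter, scaling, gene length, replicate block, the 6 libraries alone and each left-out library were tried as alternatives. A few members of the lists are not reported here by name.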

Additional observations from a re-analysis of the deposited data

How the results depend on the processing

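The 611 calls (557 higher, 54 lower) became 646 with a pseudocount of 0.1, 582 with 1, 534 without a filter, 550 with a filter at 1 FPKM, 592 with median-ratio scaling, 545 with voom on recovered reads and 661 with only the 6 libraries compared. Removing the trend over gene length from each library gave 931 calls, 733 higher and 198 lower, sharing 600 with the 611. Fits that left out 1 library gave 320 to 446 calls. The lowest was without wildtype replicate 2, and 373 were left without 5xFAD replicate 2, 397 without 5xFAD replicate 1, 370 without wildtype replicate 1 and 405 without wildtype replicate 3.

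The labels do not say that a number pairs libraries. Same-numbered deviations correlated at 0.406, 0.0436 and -0.287, and wildtype replicate 3 correlated best with 5xFAD replicate 2 (0.456). With the replicate block 503 genes were called, 474 of them shared. The test of the difference between tissues called 0 genes under each alternative run.

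With 3 libraries a group, small differences of variable genes could not be detected. Counting error was small above 0.5 FPKM for a gene of median length. Shorter genes have fewer reads at the same FPKM, so low values of short genes carry more counting error.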

Other observations

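Of 26 genes of the antioxidant response 3 rose in 5xFAD hippocampus, or 11.5% against 4.19% of all tested genes. The regulator Nfe2l2 (NRF2) stood at 15.8, 19.1 and 15.7 FPKM in 5xFAD, against 8.52, 9.72 and 8.65 FPKM in wildtype (log2 fold change 0.87, SE 0.14, adjusted p = 0.0079). Its target Nqo1 rose by 0.98 and Hmox1, heme oxygenase, by 0.57. Nqo1 was called in 1 and Hmox1 in none of the 6 fits that left out a library. The protease Mmp12 of macrophages stood at 1.23, 0.981 and 1.76 FPKM in 5xFAD, against 0.244, 0.295 and 0.316 FPKM in wildtype (1.19, SE 0.18, adjusted p = 0.0049), and Plaur, the urokinase receptor, rose by 1.38. Among 23 genes of glycolysis the hexokinases Hk2 and Hk3 rose, or 8.7% against 4.19% of all tested genes. These were not called in 4 and 5 of the 6 fits that left out a library. None of 42 genes of oxidative phosphorylation was called. With the trend over gene length removed, 1 gene of each of these 2 lists fell.

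The 66 genes of cytosolic ribosomal proteins had log2 fold changes above 0 (median 0.22) and none was called. With the trend over gene length removed, 51 of the 66 stayed above 0 and the median was 0.05. Their sum was highest in 5xFAD replicate 2, the library with the most negative slope of level over gene length among the 9 (-0.55 log2 units per step of 1 in log10 length). None of 15 genes of oligodendrocyte precursors, 16 of pericytes and smooth muscle or 7 of red cells was called, except 1 precursor gene that rose with the length trend removed. Of 17 cell cycle genes Ube2c rose, or 5.88%, near the 4.19% of all tested genes. Ube2c stood at 0.481, 0.687 and 0.575 FPKM in 5xFAD against 0.296, 0.180 and 0.0914 FPKM in wildtype (0.66, SE 0.16, adjusted p = 0.047). It was called in none of the 4 fits leaving out a library that tested it.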
